A study of Mus musculus with 48 samples.

Results

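Aspartate transfer RNA (tRNA) fragments were examined in mouse superior cervical ganglia (SCG, sympathetic) and trigeminal ganglia (TG, sensory). The 208 fragments were chosen by their annotation: every tRNA location listed for a fragment carries a name that starts with Asp, and its counts sum to 10 or more over the 48 libraries. They are 208 of the 13007 tRNA-derived fragments (tRFs) in the deposited table, and of the 3302 that reach 10 counts. Before the minimum there were 678 aspartate tRFs, and the 208 kept hold 97.9% of their counts. All 208 belong to tRNA-Asp with the anticodon GTC. The minimum used the summed counts: 10 members sit at exactly 10 counts, among them tRF-22-3W2VR0084, and 16 aspartate tRFs stopped just short at 9 counts, among them tRF-16-1QKS3WD.

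The libraries came from Balb/c mice aged 2.5 months, male and female. They received lipopolysaccharide (LPS, a bacterial cell wall component that provokes systemic inflammation) into the peritoneum at a dose of 2.5 mg/kg and a volume of 0.2 mL, or the same volume of saline, and were killed 4 h, 24 h or 7 d later. Each of the 12 groups, one for each ganglion, time and treatment, has 4 libraries, 2 from females and 2 from males. Both ganglia were taken from each mouse and part of the RNA samples was sequenced, so libraries of a group come from different mice. Whether a mouse gave libraries of each ganglion is not stated. Every library was built from an equal amount of total RNA of whole ganglia with a small RNA kit, so a lower level can come from fewer cells of a type or from less RNA per cell, and these cannot be told apart.

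A tRNA is a short adaptor RNA that reads a codon through its anticodon and carries the matching amino acid on a CCA tail that an enzyme adds at its 3′ end. Ribonucleases such as angiogenin can cleave tRNAs in the anticodon loop, which gives 5′-halves and 3′-halves. tRNA-Asp is one of the tRNAs whose wobble base, the first of the anticodon, is replaced by the modified base queuosine, together with tRNA-Asn, tRNA-His and tRNA-Tyr. It is also methylated near the anticodon by Dnmt2, as are tRNA-Gly with anticodon GCC and tRNA-Val with anticodon AAC, and that mark is known to protect against cleavage under stress.

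The sequences below show where the fragments were cut, since that is what set the ganglia apart. The 5′ fragments are called by their first and last position and the others by their deposited names. All were read from the deposited sequence column and are written 5′ to 3′. Capitals mark the bases of the anticodon GTC, at positions 34 to 36 counted from 1 at the tRNA's 5′ end as in the deposited locations. The first line is the most counted base at each position over the members, and its last bases, from position 73 to 75, are the CCA tail.
tRNA-Asp assembled from the members, 1 to 75: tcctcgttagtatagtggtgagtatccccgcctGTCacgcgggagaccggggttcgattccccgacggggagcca
5′ fragment 1 to 34: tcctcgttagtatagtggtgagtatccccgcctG
5′ fragment 1 to 35: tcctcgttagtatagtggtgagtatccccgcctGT
5′ fragment 1 to 36: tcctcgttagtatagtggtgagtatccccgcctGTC
tRF-36-8HM2OSRNLNKSEK0, 35 to 70: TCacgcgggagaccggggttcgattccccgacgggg
tRF-41-8HM2OSRNLNKSEK51B, 35 to 75: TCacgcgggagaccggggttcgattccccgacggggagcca
tRF-38-2VR008R959KUMK9, 36 to 73: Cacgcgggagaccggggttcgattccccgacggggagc
tRF-40-2VR008R959KUMKF6, 36 to 75: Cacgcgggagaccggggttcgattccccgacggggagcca
tRF-37-EH623K7SIR3DR2M, 37 to 73: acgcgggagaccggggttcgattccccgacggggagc
The fragments starting at 35, 36 or 37 thus keep 2, 1 or 0 anticodon bases. The deposited locations name chromosomes that mice do not have, so they are not positions in the mouse genome, and no genome coordinates are given here. RefSeq's mouse annotation names 16 nuclear tRNA-Asp genes with anticodon GTC, each 72 bases long, which is the length of the assembled sequence without CCA.

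The members held 60813 counts, which is 0.484% of all tRF counts. Individual members ranged from 16 to 47 bases, and their median total was 40.5 counts. A few dominated: 20 members with over 1000 counts each held 64.6% of the member counts, while 132 members had fewer than 100. Only 22 were seen in all 48 libraries. By the deposited classes, 121 were internal fragments (i-tRFs, 33.9% of counts), 19 were 3′-halves (27.9%), 47 were 3′-tRFs (18.6%), 8 were 5′-halves (15%) and 13 were 5′-tRFs (4.55%). Many of the internal fragments are 3′-halves without the last bases, so positions describe the members better than classes. Grouped by position, 151 members lie on the 3′ side (they start after position 25 and run to 66 or beyond) with 46971 counts, 21 lie on the 5′ side (they start at 1) with 11870 counts, and the other 36 hold 1972. These fragments overlap one another and share their parent tRNA, so they are not independent observations.

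The 12 members with the highest mean level were led by tRF-37-EH623K7SIR3DR2M (37 to 73) with a mean of 364 counts-per-million (CPM, scaled by TMM over all tRFs), tRF-38-2VR008R959KUMK9 (36 to 73) with 358 CPM and tRF-40-2VR008R959KUMKF6 (36 to 75) with 354 CPM. The most abundant 5′-half, the fragment 1 to 35, had a mean of 301 CPM. Of the 12, the 3′ side supplied 11: 4 starting at 36 (tRF-39-2VR008R959KUMKEV and tRF-37-2VR008R959KUMKH besides the pair above), 4 at 37 (tRF-34-EH623K7SIR3DIY, tRF-39-EH623K7SIR3DR2I2 and tRF-38-EH623K7SIR3DR2DV besides the first) and 3 at 35 (tRF-36-8HM2OSRNLNKSEK0, tRF-39-8HM2OSRNLNKSEKH9 and tRF-41-8HM2OSRNLNKSEK51B). Over all libraries, starts at 35, 36 and 37 made up 24.6%, 32.8% and 27.4% of the 3′ side counts, and ends at 34, 35 and 36 made up 21.3%, 34.4% and 12.5% of the 5′ side counts.

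Library depth limited what could be seen of single members. The tRF counts per library ran from 61218 to 1511191, and the aspartate members received between 277 and 3552 counts. The miRNA markers of sensory neurons summed to between 57814 and 86816 CPM of miRNA counts in TG libraries. In SCG libraries they summed to between 218 and 21699 CPM (median 1200), without overlap with TG. Neuron miRNAs ranged from 8059 to 35702 CPM in SCG and from 24920 to 56199 CPM in TG. Muscle miRNAs reached 83998 CPM in replicate 1 of SCG 4 h saline against an SCG median of 665 CPM, and ranged from 4182 to 15635 CPM in TG (median 6099), and leukocyte miRNAs reached 9621 CPM in replicate 2 of SCG 7 d LPS against an SCG median of 393 CPM and a TG range of 241 to 722 CPM. Red cell miRNAs summed to between 463 and 2538 CPM in SCG and between 945 and 5902 CPM in TG. Epithelial and pituitary miRNAs summed to between 14233 and 42849 CPM in SCG (median 36921) and between 3975 and 31458 CPM in TG (median 5718). All 22 marker miRNAs were found, and 1, of the epithelial and pituitary list, was at 0 in some SCG library. The part these differences play in the results was not tested.

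**Figure D1:**
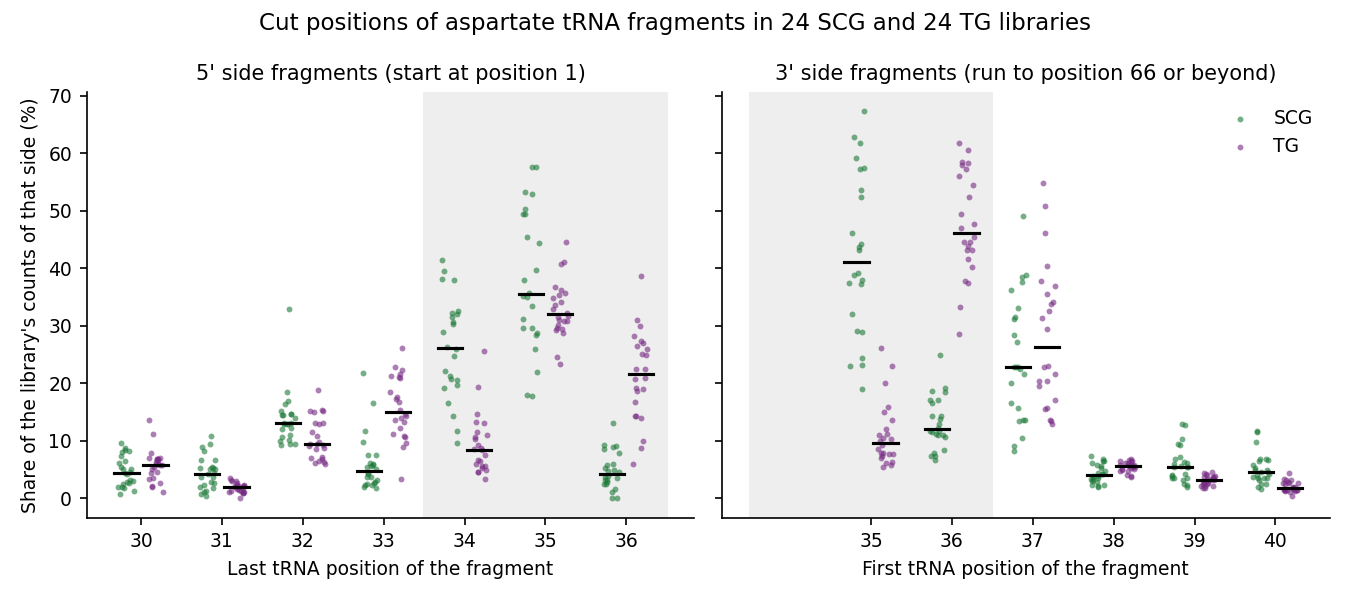
Share of each library's 5′ side counts by the last position (left) and of its 3′ side counts by the first position (right), for 24 SCG and 24 TG libraries (points, median as a black line, anticodon shaded). The most counted start is 35 in 18 SCG libraries and 37 in the other 6, and 36 in 20 TG libraries and 37 in the other 4. The ganglia do not overlap at start 36.

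The ganglia differed in where the 3′ side fragments began. In SCG the share of 3′ side counts starting at position 35 ran from 19.1% to 67.3% (median 41.2%), and in TG from 5.44% to 26.1% (median 9.64%). The start at 36 showed the opposite: 6.70% to 25% in SCG, with a median of 12%, and 28.5% to 61.8% in TG, with a median of 46.2%. So all 24 TG libraries lay above all 24 SCG libraries at start 36, while at start 35 the ranges overlapped at their edges. The libraries nearest to each other at start 36 were replicate 4 of SCG 24 h saline, with 64 of 256 counts (25%, exact 95% binomial interval 19.8% to 30.8%), and replicate 4 of TG 7 d saline, with 378 of 1324 counts (28.5%, 26.1% to 31.1%). Their counting intervals overlap. These intervals cover counting error only, as reads without molecular identifiers are not independent molecules. Positions were compared after their values had been seen, so the shares are a description with no test.

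The start at 37, past the anticodon, was alike in range in both ganglia, 8.26% to 49.0% in SCG and 12.9% to 54.8% in TG. Starts at 39 and 40 had medians of 5.5% and 4.62% in SCG and of 3.15% and 1.77% in TG. Without the SCG libraries highest in muscle and leukocyte miRNAs, the other 22 SCG libraries spanned 6.70% to 25% at start 36 and 19.1% to 67.3% at start 35. The lowest and highest SCG shares at these starts all came from libraries that were kept. The ranges therefore could not change, and they do not show what part muscle or leukocyte RNA plays.

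The 5′ side fragments, which end where a cut was made, differed too. Ends at 34, after the first anticodon base, made up 9.71% to 41.4% of the 5′ side counts in SCG (median 26.1%) and 3.39% to 25.6% in TG (median 8.50%). Ends at 36, after the whole anticodon, made up 0% to 13.1% in SCG (median 4.23%) and 5.98% to 38.6% in TG (median 21.7%). Ends at 33 had medians of 4.81% (SCG) and 15% (TG), and ends at 35 were the most frequent in both, with medians of 35.5% and 32%. The 5′ side counts were few, from 54 to 1228 in an SCG library and from 59 to 450 in a TG library. An end at 34 and a start at 35 would be left by the same cut, as would an end at 35 and a start at 36, or an end at 36 and a start at 37. The SCG shares were the higher ones on both sides of the bond between 34 and 35. Starts at 36 were more frequent in TG, while ends at 35 had similar medians in both ganglia.

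**Figure D2:**
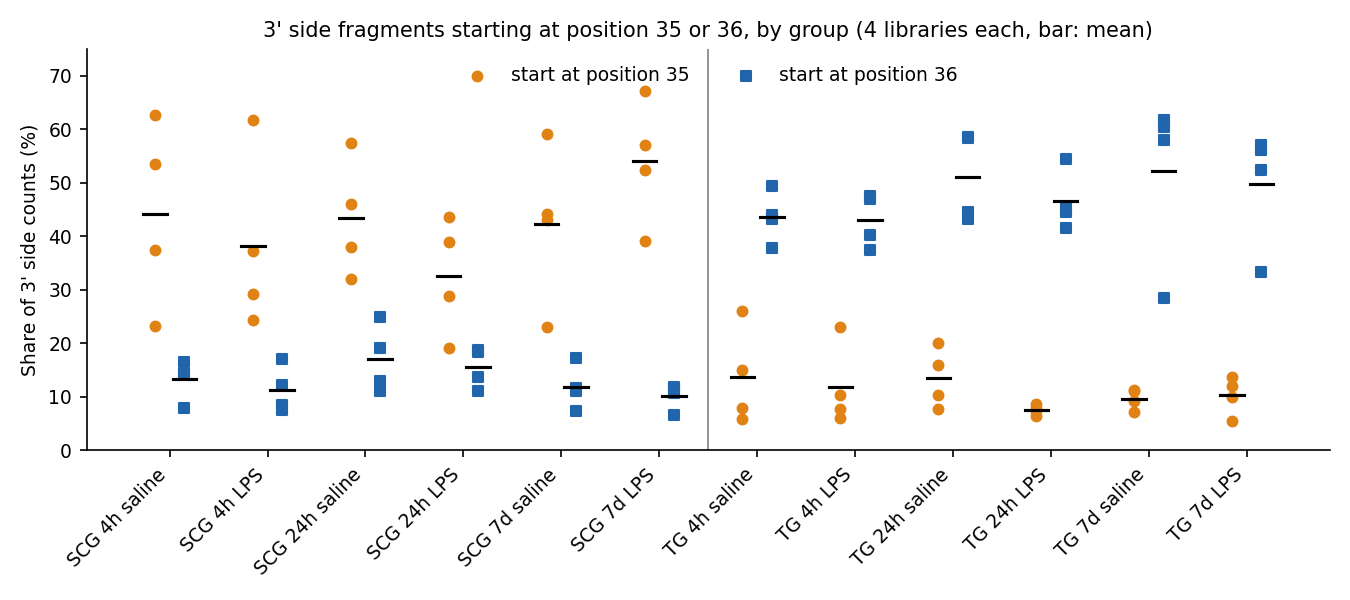
Share of 3′ side counts starting at position 35 (circles) or 36 (squares) in each of the 12 groups, 4 libraries a group with the mean as a bar. Means of start 36 lie between 10.2% and 17.1% in the SCG groups and between 43.1% and 52.2% in the TG groups.

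The same order held at each time and treatment. Starts at 36 made up 13.3% ± 3.68 (SD, n = 4) of the 3′ side counts in SCG 4 h saline, 11.3% ± 4.37 in SCG 4 h LPS, 17.1% ± 6.30 in SCG 24 h saline, 15.5% ± 3.72 in SCG 24 h LPS, 11.9% ± 4.02 in SCG 7 d saline and 10.2% ± 2.39 in SCG 7 d LPS. In TG they made up 43.6% ± 4.70, 43.1% ± 5.03, 51.2% ± 8.43, 46.5% ± 5.56, 52.2% ± 15.8 and 49.7% ± 11.1 in the groups of the same order (SD, n = 4 each). LPS and saline groups of a ganglion overlapped at every time. For starts at 35, the highest group mean was SCG 7 d LPS with 54.0% ± 11.7 and its saline group had 42.4% ± 14.8, again with overlapping libraries. The lowest was TG 24 h LPS with 7.60% ± 0.937, beside 13.5% ± 5.51 in TG 24 h saline.

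Single members were compared between ganglia with edgeR's quasi-likelihood test over all tRFs that passed the filter on low counts, with time and sex in the model and Benjamini-Hochberg adjustment over all of them (call at an adjusted p under 0.05). After saline, 44 members were tested and 28 were called, 20 higher and 8 lower in TG. The background was high: 42.7% of all 571 tRFs tested were called, 119 higher and 125 lower. After LPS, 49 members were tested and 32 were called, 24 higher and 8 lower, beside 50.3% of 599 tRFs, 160 higher and 141 lower. The members' median log2 fold change was 0.70 after saline and 0.56 after LPS, against -0.04 and -0.03 over all tRFs tested. Of the 44, 13 passed the filter within TG alone and 4 within SCG alone. Passing only where a member is high selects for a difference, so such a call is no support, although not every such member was called. Among the 20 that passed in each ganglion alone, 9 were called higher and 4 lower, and among the 18 such members after LPS, 8 higher and 2 lower. The 151 members tested in no comparison of this study are described by their counts only. The libraries of the 2 ganglia carry separate runs of library numbers and, per the labels, the ganglia differ in average RNA yield. Neither can be told apart from the ganglion.

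**Figure D3:**
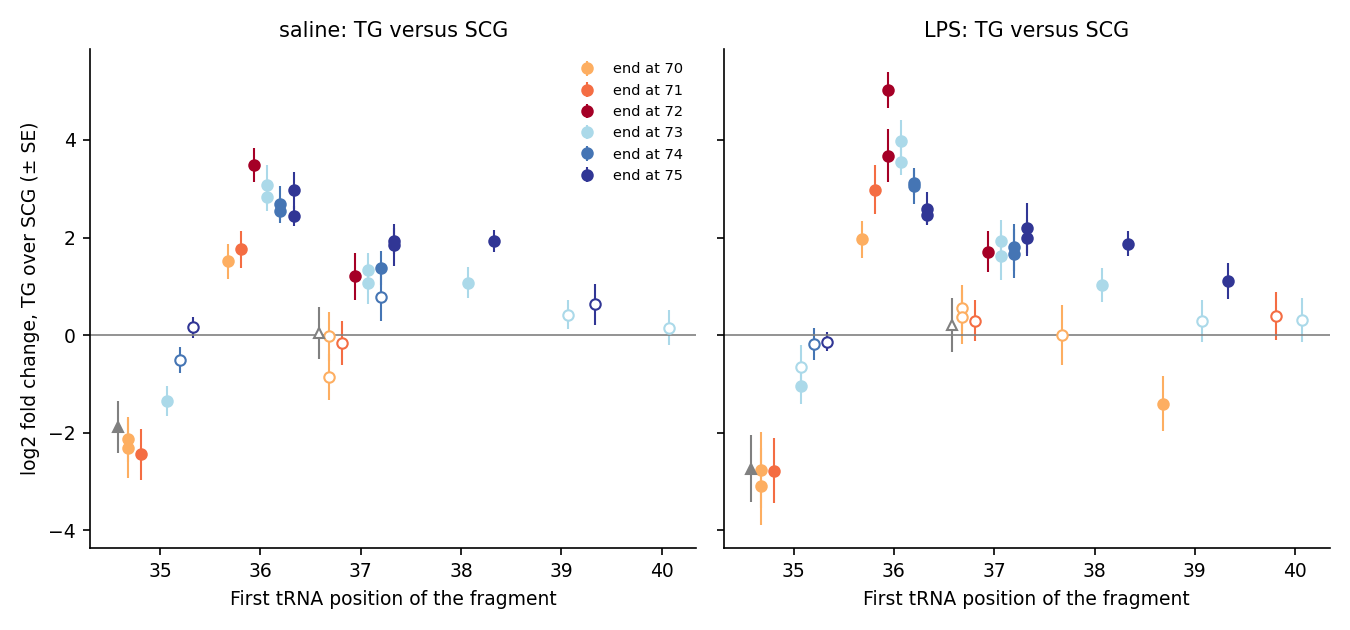
Log2 fold change of each tested 3′ side member, TG over SCG (± SE), after saline (left) and LPS (right), placed by its first position and coloured by its last position (triangles: ends before 70). Filled symbols were called. Members starting at 36 lie above 0 in both panels, and members starting at 35 that end at 70 or 71 lie below.

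Calls were tallied by cut position. After saline, all 9 tested 3′ side members starting at 36 were called higher in TG, with log2 fold changes from 1.51 to 3.49. Of these, 4 passed the filter only within TG, and the 5 that passed in each ganglion alone ran from 1.51 to 2.84. Of the 7 tested that start at 35, 5 were called lower and none higher, and their fold changes ran from -2.44 to 0.16. Among the 4 of them that passed in each ganglion, 2 were called lower, and the other 3 passed only within SCG. Among the 11 starting at 37, 6 were higher and none lower, from -0.86 to 1.92, and 3 of those 6 passed only within TG. On the 5′ side, both members ending at 34 were lower (-1.43 and -1.51), both ending at 36 were higher (1.62 and 1.81), with 1 member of each pair passing in each ganglion alone, and neither ending at 35 was called (-0.44 and -0.49). After LPS the counts were 10 of 10 higher for start 36, 5 of 8 lower for start 35 and 7 of 11 higher for start 37, of which 4, 1 and 3 passed in each ganglion alone. Members starting at 39 went both ways: of 3 tested, 1 was called higher (1.11) and 1 lower (-1.40). Ends at 34 and 36 again had both members called, lower and higher. Of these, 1 member ending at 34 passed in each ganglion alone, and both ending at 36 passed only within TG. The groups by position were formed after the values were seen, and the saline and LPS fits use different libraries of the same design.

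Among the fragments starting at 36, tRF-38-2VR008R959KUMK9 (36 to 73) is a 3′-half that holds the first base of the CCA tail. It measured 17.1, 70.7 and 280 CPM (lowest, median and highest of 12) in SCG saline libraries and 519, 678 and 824 CPM in TG saline libraries. The ganglia did not overlap, and the SCG maximum came from replicate 4 of the 4 h group. Its mean was 7.46-fold higher in TG (log2 fold change 2.84, SE 0.28, edgeR adjusted p = 1.09e-08). After LPS it measured 13.6, 50.9 and 90.5 CPM in SCG and 403, 603 and 746 CPM in TG, again without overlap (log2 fold change 3.56, SE 0.28, edgeR adjusted p = 8.13e-11).

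The form with the whole CCA tail, tRF-40-2VR008R959KUMKF6 (36 to 75), measured 56.4, 110 and 214 CPM in SCG saline libraries and 495, 631 and 930 CPM in TG saline libraries. All 12 TG libraries again exceeded all 12 SCG libraries, and the mean was 5.61-fold higher (log2 fold change 2.44, SE 0.20, edgeR adjusted p = 4.49e-10). The form that stops a base earlier, tRF-39-2VR008R959KUMKEV (36 to 74), rose from a median of 64.1 CPM to one of 378 CPM (log2 fold change 2.55, SE 0.18, edgeR adjusted p = 2.81e-11). tRF-37-2VR008R959KUMKH (36 to 72), which lacks the CCA tail, passed the filter only within TG, after saline and after LPS alike, so its fold is given as a description. It ranged from 5.12 to 72.8 CPM in SCG saline libraries and from 133 to 449 CPM in TG saline libraries, 12.6-fold higher in the mean (log2 fold change 3.49, SE 0.34, edgeR adjusted p = 8.76e-09). After LPS it had a count in 10 of 12 SCG libraries, at most 23.6 CPM, and at least 163 CPM in TG (log2 fold change 5.03, SE 0.37). Its TG levels were much the same after both treatments, with medians of 247 and 260 CPM, and its SCG medians were 15.3 and 5.26 CPM.

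The shorter fragments tRF-36-2VR008R959KUMKB (36 to 71) and tRF-35-2VR008R959KUMK (36 to 70) showed smaller differences, 1.76 and 1.51 after saline, and their ranges overlapped. The first measured 0 to 140 CPM in SCG and 90.5 to 419 CPM in TG, and the second 0 to 166 and 89.3 to 217 CPM.

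Among the fragments starting at 35, tRF-36-8HM2OSRNLNKSEK0 (35 to 70) keeps 2 anticodon bases and lacks the last bases of the tRNA body. In SCG saline libraries it measured 60.2, 165 and 1775 CPM (lowest, median and highest of 12), and in TG saline libraries 24.3, 50.3 and 185 CPM. The highest SCG value came from replicate 1 of 4 h saline, the library highest in muscle miRNAs, and the next were 673 and 590 CPM, so the spread within SCG was wide. It was lower in TG (log2 fold change -2.13, SE 0.46, edgeR adjusted p = 0.000516), and 7 of 12 TG libraries lay below every SCG library. After LPS it measured 13.6, 138 and 1571 CPM in SCG and 0, 28.9 and 163 CPM in TG (log2 fold change -2.77, SE 0.78, edgeR adjusted p = 0.00534). That call was lost when no filter was applied (adjusted p = 0.0724). After LPS the member passed the filter only within SCG, where it is high, so that fold is given as a description.

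A base longer, tRF-37-8HM2OSRNLNKSEKL (35 to 71) had SCG and TG medians of 152 and 23.9 CPM after saline (log2 fold change -2.44, SE 0.52, edgeR adjusted p = 0.000461). This member passed the filter only within SCG, where it is high, so its fold is given as a description. The 3′-half tRF-39-8HM2OSRNLNKSEKH9 (35 to 73) measured 139, 378 and 684 CPM in SCG saline libraries and 48.3, 118 and 317 CPM in TG saline libraries (log2 fold change -1.35, SE 0.31, edgeR adjusted p = 0.000868). After LPS its log2 fold change was -1.04 with SE 0.37 (edgeR adjusted p = 0.0230), and the call was lost without replicate 1 of SCG 7 d LPS (adjusted p = 0.0544). With the whole tail the difference was not seen: tRF-41-8HM2OSRNLNKSEK51B (35 to 75) measured 87.4, 169 and 288 CPM in SCG and 71.4, 195 and 331 CPM in TG (log2 fold change 0.16, SE 0.21, edgeR adjusted p = 0.578). Its neighbour tRF-40-8HM2OSRNLNKSEK51 (35 to 74) was not called either (log2 fold change -0.50, SE 0.26), although it was without replicate 1 of TG 24 h saline (-0.68, adjusted p = 0.0366). So among fragments with the same start at 35, those that end at 68, 70, 71 or 73 were lower in TG after saline and those that end at 74 or 75 were not called. The members that end at 68 or 71 passed the filter only within SCG, which selects for a difference, as did the G56A form that ends at 70. Whether the 2 sets differ from each other was not tested.

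The 3′ ends differed by ganglion as well. Ends at 73 to 75, within the CCA tail, made up 26.3% to 73.4% of the 3′ side counts in SCG (median 58.0%) and 61.3% to 76.3% in TG (median 70.9%). Ends at 72, where the tail is missing and the body complete, made up 1.32% to 4.21% in SCG and 3.75% to 10.5% in TG. Ends at 70 had medians of 20.5% and 10.04%. Among fragments starting at 35, the share ending at 70 or 71 had a median of 28.7% among SCG libraries and 13.9% among TG libraries.

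Fragments that start at 37 have lost the anticodon. The most abundant member, tRF-37-EH623K7SIR3DR2M (37 to 73), measured 67.3, 143 and 720 CPM in SCG saline libraries and 190, 319 and 1285 CPM in TG saline libraries. The ranges overlapped, and only 3 TG libraries exceeded every SCG library, although the member was called (log2 fold change 1.33, SE 0.34, edgeR adjusted p = 0.00213). The form with the whole tail, tRF-39-EH623K7SIR3DR2I2 (37 to 75), measured 9.62 to 119 CPM in SCG and 116 to 398 CPM in TG (log2 fold change 1.92, SE 0.27, edgeR adjusted p = 2.10e-06). Between them, tRF-38-EH623K7SIR3DR2DV (37 to 74) had a log2 fold change of 1.39 with SE 0.35. The short form tRF-34-EH623K7SIR3DIY (37 to 70) varied from 8.23 to 1188 CPM in SCG and from 26.8 to 1092 CPM in TG, with medians of 206 and 151 CPM, and was not called (log2 fold change -0.02, SE 0.50). Starting a base further on, tRF-38-L85DMKYUYRLHR0D2 (38 to 75) did not overlap, at 8.23 to 34.1 CPM in SCG and 68.1 to 143 CPM in TG (log2 fold change 1.93, SE 0.22, edgeR adjusted p = 9.81e-08). This member passed the filter only within TG, where it is high, so its fold is given as a description.

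On the 5′ side, the fragment 1 to 34 is a 5′-half that ends after the wobble base. It measured 49.4, 136 and 350 CPM in SCG saline libraries and 16.6, 47.1 and 104 CPM in TG saline libraries, and 6 of 12 TG libraries lay below every SCG library (log2 fold change -1.43, SE 0.30, edgeR adjusted p = 0.000307). One base longer, the fragment 1 to 35 measured 156, 328 and 1061 CPM in SCG and 141, 253 and 433 CPM in TG and was not called (log2 fold change -0.44, SE 0.27, edgeR adjusted p = 0.199). Another base longer, the fragment 1 to 36 measured 0, 38.2 and 99.0 CPM in SCG and 54.7, 128 and 297 CPM in TG and was higher there (log2 fold change 1.62, SE 0.35, edgeR adjusted p = 0.000431). Fragments that differ by 2 bases at the 3′ end thus had opposite directions. After LPS the log2 fold changes of these members were -1.69, -0.30 and 2.19, with the first and the last called. The last, the fragment 1 to 36, then passed the filter only within TG, where it is high, which selects for a difference.

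Shorter 5′ fragments were mixed. The fragment 1 to 33 had a log2 fold change of 1.22 after saline, which was not called (edgeR adjusted p = 0.0814), and of 1.17 after LPS, which was called (adjusted p = 0.00294). Without replicate 1 of SCG 4 h saline, where it stood at 251 CPM, the saline value was 2.03 and called. The fragment 1 to 32 was lower in TG after saline (log2 fold change -0.68, SE 0.24, edgeR adjusted p = 0.0222). That call was lost without replicate 2 of SCG 7 d saline (adjusted p = 0.0566), without replicate 4 of TG 4 h saline (0.0544) or with no filter (0.517), and after LPS the member was not called (-0.31).

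Members with a base substitution, G56A, showed the same order of start positions. The members carried 3 substitutions relative to the assembled sequence: G20T in 12 members with 28.1% of the counts covering position 20, G56A in 48 members with 12.7% at position 56, and C48T in 3 members with 0.570% at position 48. In the deposited locations, all 60 members with G20T or G56A are listed at 1 and the same tRNA locus. Each of the 145 members without a substitution is listed there at 11 to 14 loci. No member covers both position 20 and position 56, so whether the same mouse tRNA carries both substitutions cannot be told. The examples below carry the substituted base as the only capital.
G20T 5′ fragment 1 to 34: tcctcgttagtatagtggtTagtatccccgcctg
tRF-36-8HM2OSRN2NKSEK0, 35 to 70, G56A: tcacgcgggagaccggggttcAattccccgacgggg
tRF-40-2VR008R9D9KUMKF6, 36 to 75, G56A: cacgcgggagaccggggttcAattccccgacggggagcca
Within the G56A members, starts at 36 made up 0.629% to 23.8% of the 3′ side counts in SCG and 24.8% to 60.3% in TG, and within those without a substitution 6.95% to 26.6% and 29.0% to 62.5%. The ganglia did not overlap in either form, but for G56A the ranges nearly met, at 23.8% and 24.8%. The G56A shares rest on few counts, 2591 over all SCG libraries, and no counting intervals were computed for them. G56A itself made up 9.14% to 16.1% of the 3′ side counts that cover position 56 in SCG and 10.2% to 14.5% in TG, and G20T 16.1% to 43% of the 5′ side counts in SCG and 17.9% to 39.7% in TG. The medians were 13.6% and 12.2% for G56A and 30.5% and 23.9% for G20T, and whether they differ was not tested.

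Single members with G56A or G20T are given as values. Each one called below passed the filter only within the ganglion where it is high, which selects for a difference. tRF-40-2VR008R9D9KUMKF6 (36 to 75) measured 0 to 38 CPM in SCG saline libraries and 72.4 to 166 CPM in TG saline libraries (log2 fold change 2.97, SE 0.38, edgeR adjusted p = 6.08e-07). tRF-38-2VR008R9D9KUMK9 (36 to 73), with a count in 7 of 12 SCG saline libraries, had a log2 fold change of 3.08 with SE 0.42, and tRF-39-2VR008R9D9KUMKEV (36 to 74) one of 2.68 with SE 0.38. tRF-36-8HM2OSRN2NKSEK0 (35 to 70) measured 0 to 521 CPM in SCG and 0 to 69.5 CPM in TG (log2 fold change -2.32, SE 0.60, edgeR adjusted p = 0.00262), a call that was lost without the filter (adjusted p = 0.100). On the 5′ side, the G20T fragment 1 to 34 had a log2 fold change of -1.51 with SE 0.42, and the G20T fragment 1 to 36 one of 1.81 with SE 0.40. The G20T fragment 1 to 35 was not called (-0.49, SE 0.30), and the G20T fragment 1 to 33 was higher in TG (1.46, SE 0.39).

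**Figure D4:**
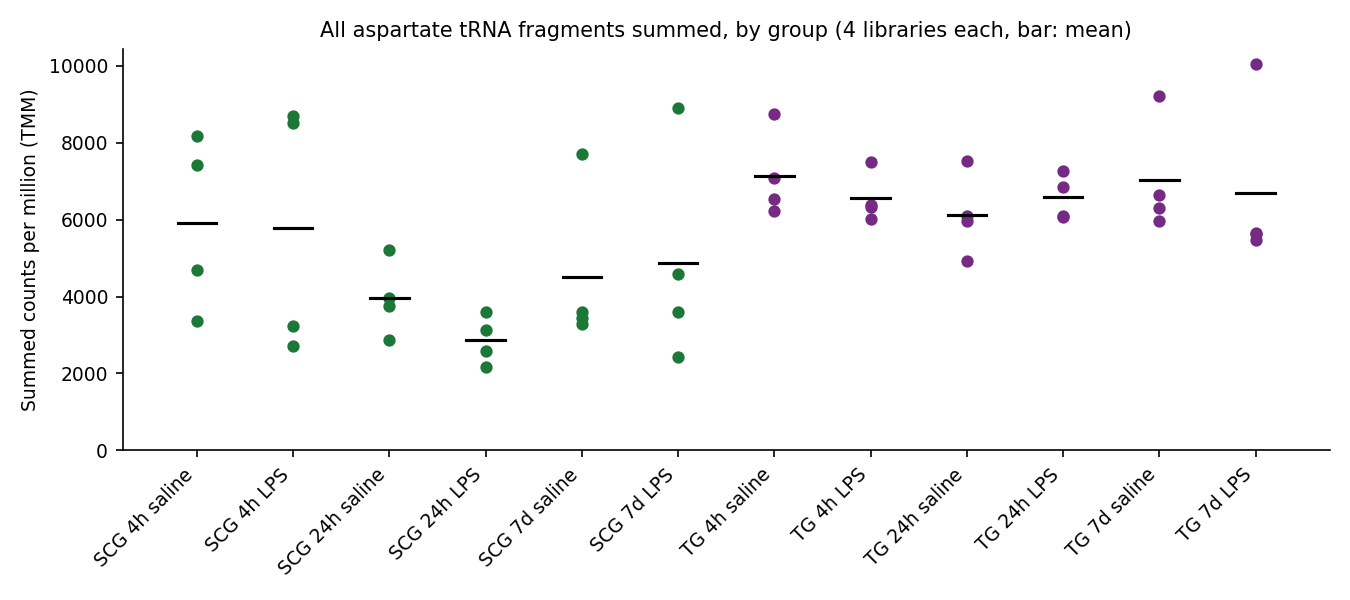
Summed CPM (TMM) of all 208 aspartate tRFs in each library (points) with the group mean (bar), for 12 groups of 4 libraries. TG libraries lie between 4913 and 10038 CPM and SCG libraries between 2180 and 8896 CPM, so the ganglia overlap.

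The summed level separated the ganglia less clearly than the cut positions. After saline the 208 members summed to 2872, 3870 and 8181 CPM (lowest, median and highest of 12) in SCG and to 4913, 6416 and 9204 CPM in TG. After LPS they summed to 2180, 3419 and 8896 CPM in SCG and to 5471, 6211 and 10038 CPM in TG. The mean log2 level was higher in TG by 0.57 after saline and by 0.72 after LPS, and the ranges overlapped. The size depends on the scaling: per raw tRF total the differences were 1.20 and 1.31, and per miRNA total 0.41 and 0.47. By group, the means ran from 2873 ± 619 CPM in SCG 24 h LPS to 5912 ± 2263 in SCG 4 h saline, and from 6125 ± 1073 in TG 24 h saline to 7148 ± 1127 in TG 4 h saline (SD, n = 4).

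The balance of the 2 sides differed as well. The 3′ side made up 52.3% to 90.3% of the 3′ and 5′ side counts in SCG libraries (median 75.3%) and 73.2% to 91.9% in TG libraries (median 86.3%). In SCG at 4 h it was 82.2% ± 6.78 after saline and 65.7% ± 11 after LPS (SD, n = 4), with overlapping libraries.

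**Figure D5:**
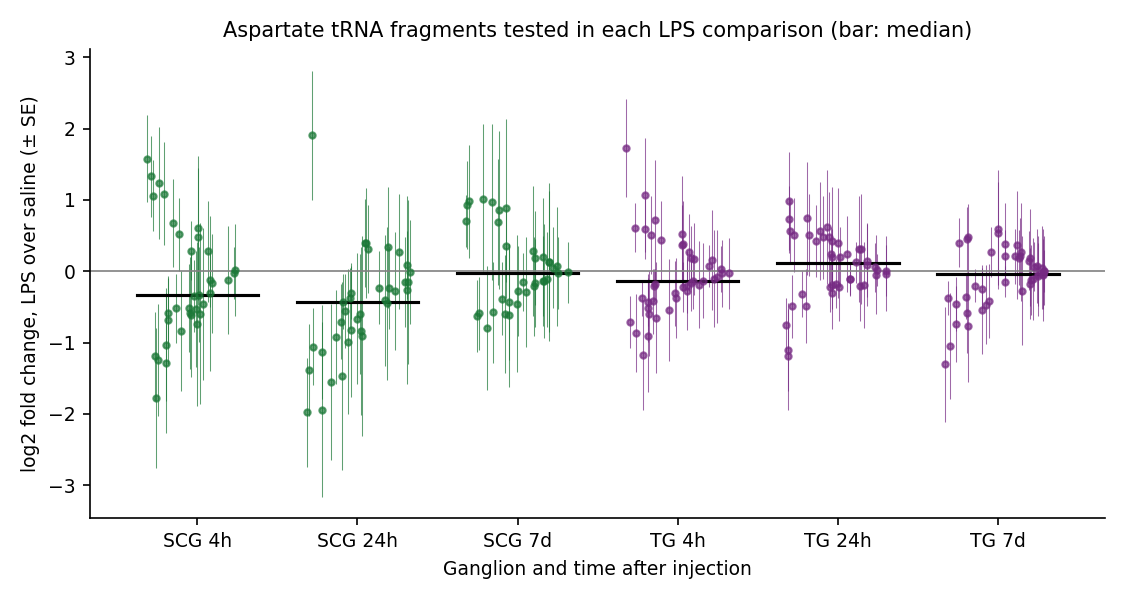
Log2 fold change of each tested aspartate tRF, LPS over saline (± SE), in the 6 comparisons of ganglion and time, with the median as a bar. None was called, and the errors are wider in SCG than in TG.

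LPS gave no called member at any time in either ganglion. In SCG, 35 members were tested at each time with all 24 SCG libraries sharing the estimate of spread, and 0 were called at 4 h, 24 h or 7 d by edgeR's quasi-likelihood test. At an unadjusted p under 0.05 there were 3, 3 and 0. In TG, 42 members were tested and 0 were called, with 1, 0 and 0 at an unadjusted p under 0.05. The background was the same: 0% of the 544 SCG tRFs and 0% of the 559 TG tRFs tested were called. DESeq2 also called 0 members in each of the 6 comparisons. The members' median log2 fold changes were -0.33, -0.43 and -0.03 in SCG and -0.14, 0.11 and -0.04 in TG at 4 h, 24 h and 7 d. The median SE of a member was 0.71, 0.77 and 0.77 in SCG and 0.53, 0.51 and 0.51 in TG, so small changes were not detectable at this depth and spread.

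The members with the lowest p in SCG at 4 h were 5′ fragments. The G20T fragment 1 to 34 measured 39.6, 60.2, 108 and 114 CPM in the saline libraries and 504, 205, 63.4 and 338 CPM in the LPS libraries, so 3 of 4 LPS libraries exceeded every saline library (log2 fold change 1.58, SE 0.61, edgeR adjusted p = 0.580). Its counterpart without a substitution, the fragment 1 to 34, measured 92.4, 114, 141 and 114 CPM after saline and 641, 271, 120 and 351 CPM after LPS (log2 fold change 1.33, SE 0.57, edgeR adjusted p = 0.632). The third, the G20T fragment 1 to 35, had a log2 fold change of 1.06 with SE 0.50. At 24 h in SCG, tRF-39-8HM2OSRN2NKSEKH9 (35 to 73) measured 40.9, 87.5, 20.5 and 57.6 CPM after saline and 23.6, 5, 9.62 and 13.2 CPM after LPS (log2 fold change -1.98, SE 0.77, edgeR adjusted p = 0.852). These rest on few reads, 1 to 16 counts a library for the last. tRF-39-8HM2OSRNLNKSEKH9 (35 to 73) had a log2 fold change of -1.38 with SE 0.64 there, and the fragment 1 to 33 one of 1.91 with SE 0.91. In TG at 4 h, the G20T fragment 1 to 36 measured 16.6, 49.4, 10.2 and 7.72 CPM after saline and 57.3, 199, 44.3 and 6.78 CPM after LPS (log2 fold change 1.73, SE 0.69, edgeR adjusted p = 0.934).

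The abundant fragments that separated the ganglia were not called for LPS in either. tRF-38-2VR008R959KUMK9 (36 to 73) measured 664, 824, 519 and 591 CPM in TG 4 h saline, 573, 403, 552 and 746 CPM in TG 4 h LPS, 784, 590, 804 and 651 CPM in TG 7 d saline and 598, 520, 667 and 704 CPM in TG 7 d LPS. The groups overlapped at each time. In SCG its log2 fold change after LPS was -1.19 (SE 0.63, edgeR adjusted p = 0.674) at 4 h, -1.13 (SE 0.65, adjusted p = 0.943) at 24 h and -0.11 (SE 0.66) at 7 d, on as few as 2 counts a library. tRF-37-EH623K7SIR3DR2M (37 to 73) varied widely within groups, for example 190, 257, 323 and 1285 CPM in TG 7 d saline and 239, 208, 1604 and 273 CPM in TG 7 d LPS, with 1 high library in each.

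The difference of the LPS effect between ganglia was tested over all 48 libraries. None of the 56 members tested was called at 4 h, 24 h or 7 d, beside 0% of 729 tRFs, and 3, 1 and 0 had an unadjusted p under 0.05. DESeq2 called 0. The lowest p was that of the G20T fragment 1 to 34 at 4 h, whose LPS effect was lower in TG than in SCG by a log2 difference of -3.15 (SE 1.01, edgeR adjusted p = 0.459). At 24 h, tRF-37-2VR008R959KUMKH (36 to 72) had a difference of 1.83 with SE 0.83.

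Sex was examined within each ganglion, with the 6 groups in the model. No member was called, in 35 tested in SCG (0% of 544 tRFs) and 42 in TG (0% of 559 tRFs), and DESeq2 called 0. In each ganglion 4 members had an unadjusted p under 0.05. The lowest was tRF-41-8HM2OSRNLNKSEK51B (35 to 75) in SCG, higher in males by a log2 fold change of 0.69 (SE 0.21, edgeR adjusted p = 0.236). The fragment 1 to 36 had lower values in males in each, -1.23 (SE 0.42) in SCG and -0.84 (SE 0.32) in TG.

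Fragments of other tRNAs were set beside these by lists of the parent tRNA: Asn, His and Tyr for queuosine, GlyGCC and ValAAC for Dnmt2 methylation, and GluCTC for its abundant 5′-halves. tRNA-Asn, another tRNA with queuosine, had 55 tRFs at the same minimum and few counts, 1948 on the 3′ side in SCG and 8629 in TG. Its most counted fragments at the pair of starts are shown with the anticodon bases in capitals, since they differ by the same single base.
tRF-41-YDLBRY73W0K5KKOVD, 36 to 76: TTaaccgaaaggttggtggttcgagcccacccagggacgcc
tRF-40-U1O0789NLJK1JKE1, 37 to 76: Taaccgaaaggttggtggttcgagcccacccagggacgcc
The Asn anticodon lies a position later than that of Asp, so a start at 36 keeps 2 of its bases and a start at 37 keeps 1. Starts at 36 made up 50.6% to 95.9% of Asn 3′ side counts in SCG libraries and 14.9% to 31.8% in TG libraries, and starts at 37 made up 4.08% to 46.9% and 66.9% to 84.1%. The ganglia overlapped at neither. In both tRNAs, starts that keep 2 anticodon bases had the lower share in TG and starts that keep 1 had the higher share. Cut positions of other tRNAs also differed between ganglia, in 5′ side counts pooled over libraries. Ends just before the anticodon made up 7.27% in SCG and 53.9% in TG for His, and 4.48% and 31.4% for GlyGCC. They made up 37.5% and 57.8% for GluCTC, 4.40% and 8.02% for ValAAC, and 5.02% and 15.7% for Asp. Ends after its first base made up 30.2% in SCG and 9.39% in TG for Asp, and 20.6% and 7.19% for His. For GlyGCC they made up 0.243% and 0.525%, for GluCTC 11.5% and 11.8%, and for ValAAC 6.16% and 22.9%.

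Both tRNAs were mostly seen through their 3′ side: 73.3% of the summed 3′ and 5′ side counts in SCG and 84.8% in TG for Asp, and 84.3% and 98.7% for Asn. The 3′ share was 0.0691% and 0.144% for His, 1.74% and 2.47% for GlyGCC, 3.93% and 2.78% for ValAAC and 0.0129% and 0.0223% for GluCTC. All placed Tyr counts lay on the 3′ side. These shares and the 5′ side shares above cover only tRFs with the same position at all their locations. Those were 99 of 161 for His, 168 of 170 for GlyGCC and 262 of 282 for GluCTC, and all tRFs of the other lists. In the saline comparison of ganglia, in which 42.7% of all tRFs tested were called, 8 of 13 Asn tRFs tested were called higher in TG and none lower, 8 of 39 His tRFs higher and 16 lower, and 0 of 9 Tyr tRFs higher and 8 lower. For GlyGCC it was 4 higher and 4 lower of 30, for ValAAC 1 and 2 of 6, and for GluCTC 8 and 7 of 55. The median log2 fold changes were 3.28 for Asn, -0.31 for His, -1.11 for Tyr, -0.14 for GlyGCC, -0.28 for ValAAC and -0.08 for GluCTC, beside 0.70 for Asp. After LPS, with 50.3% of all tRFs tested called, 7 of 13 Asn tRFs were higher and 1 lower, 9 and 19 of 42 for His, 0 and 7 of 9 for Tyr, 5 and 5 of 34 for GlyGCC, 2 and 2 of 7 for ValAAC and 15 and 7 of 62 for GluCTC. Whether the lists differ from one another was not tested.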

How the data were processed

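Small RNA of 48 libraries was measured by sequencing. The authors deposited whole-number counts per tRF and per miRNA, with a table of each tRF's sequence, class and tRNA locations. The submitters' processing notes name FastQC 0.11.9 and the genome build GRCm39; no source used here gives the aligner or tRF caller. Counts were analysed as deposited. The members and lists were chosen with earlier results of these data known.

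edgeR 4.0.16 (R 4.3.3) was run with TMM scaling, filterByExpr with a minimum count of 10, robust quasi-likelihood fits and Benjamini-Hochberg adjustment over all tRFs tested. LPS was compared within each ganglion over 24 libraries (sex additive), the ganglia within each treatment (time and sex additive), and the LPS effect between ganglia over 48 libraries. DESeq2 1.42.0, other scalings and filters, and leaving out each library were alternatives. Leaving out the SCG libraries highest in muscle and leukocyte miRNAs was an alternative chosen after seeing the data. The scripts were tested on simulated data. Depth ran from 61218 to 1511191 tRF counts and from 1774047 to 5592766 miRNA counts per library. Replicate pairs of a group differed beyond sampling noise in each of 72 pairs (chi-square per degree of freedom from 3.06), so none was counted as a duplicate.

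Members named were the 12 with the highest mean CPM and, between ganglia, up to 8 called members with the largest fold change. Others were named after their values were seen to complete a series of start and end positions, and those at an unadjusted p under 0.05.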

Additional observations from a re-analysis of the deposited data

Results flagged for a closer look

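Among 72 sets of 4 libraries checked for a value far from the other 3, 7 stood out; chance gives about 1 in 20. The summed aspartate level was 7718 CPM in SCG 7 d saline replicate 2, against 3276 to 3601 CPM in the others, and 10038 CPM in TG 7 d LPS replicate 3, against 5471 to 5658 CPM. In TG 7 d saline replicate 4, starts at 36 made up 28.5% of the 3′ side counts, against 58.0% to 61.8%, and starts at 37 made up 54.8%, against 13.7% to 20.4%. Starts at 37 were also low in SCG 7 d LPS replicate 4 (9.09%, others 21.6% to 22.9%) and in TG 24 h LPS replicate 4 (22.9%, others 32.6% to 34.2%). Ends at 36 made up 5.98% of the 5′ side counts in TG 7 d LPS replicate 4, against 25% to 28.2%. The cause was not tested.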

How the results depend on the processing

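The 0 called members in the LPS, interaction and sex comparisons remained 0 under every alternative run, including each library left out. Between ganglia the called members numbered 28 after saline and 32 after LPS, from 26 to 32 and from 31 to 36 with a library left out. A filter at a minimum count of 50 left 13 and 14 members to test and 10 called in each. The level difference per raw tRF total was 1.20 after saline and 1.31 after LPS, against 0.57 and 0.72. For tRF-34-EH623K7SIR3DIY, which was not called, the saline fold change of -0.02 changed sign to 0.0739 (DESeq2), 0.0569 (RLE scaling), 0.0545 (no filter) and 0.23 (minimum count 50), and ran from -0.38 to 0.38 with a library left out. Other calls that a setting ended stand beside their members in the text. After LPS the G20T fragment 1 to 35 (-0.63, not called) was called with miRNA library sizes (-0.97, adjusted p = 0.0204) and when any one of SCG 24 h LPS replicate 1, SCG 7 d LPS replicate 1 or SCG 4 h LPS replicate 4 was left out, and after saline the fragment 1 to 33 was called by DESeq2 (1.37, adjusted p = 0.0291). tRF-39-8HM2OSRNLNKSEKH9 after LPS was no longer called at minimum count 50 (-0.83, adjusted p = 0.0609). No paired analysis was possible because it is not stated which mice gave libraries of each ganglion and the replicate numbers only follow accession order. Shares of 5′ side counts rest on as few as 54 counts, and 151 members had too few counts for any test.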
